A study of Mus musculus with 6 samples.

Results

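The comparison described here set the brain section of an E4 5xFAD mouse against that of an E3 5xFAD mouse and asked which genes differed between the 2 genotypes to a different degree in cortex and in the regions below it. These are 2 of the 6 spatial transcriptomic sections of the study and hold 4861 of the 13332 spots used. The E4 5xFAD and E3 5xFAD mice were females of 12 months, homozygous for human APOE4 or APOE3 at the mouse Apoe locus and crossed to the 5xFAD strain, which carries mutant human APP among its transgenes under Thy1 promoter cassettes and lays down amyloid plaques. Both sections therefore carry the human in place of the mouse Apoe coding sequence and come from a cross to a B6SJL line. The other sections, E4 young and E3 young at 3 months and E4 aged and E3 aged at 24 months, carry the APOE replacement alone and serve only as a comparison.

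There was 1 section from 1 hemisphere a side. No test between genotypes can be made with 1 section per group, so each value below stands with an exact 95% interval that covers counting error only, and a difference between the 2 sections cannot be told apart from a difference between 2 mice, 2 cutting planes or 2 library preparations. Each Visium spot covers several cells and counts captured molecules by unique molecular identifiers (UMIs). Spots on tissue with at least 1000 UMIs were placed in a class by their counts of Slc17a7 and Slc17a6, the vesicular glutamate transporters VGLUT1 and VGLUT2. Slc17a7 marks excitatory neurons of the cortex and hippocampus, and Slc17a6 marks those of the thalamus, hypothalamus and other deep nuclei. Levels are CPM, UMIs per 1000000 mouse UMIs of a class. The quantity of interest is the log2 ratio of the E4 5xFAD to the E3 5xFAD level in Slc17a7-led spots minus the same log2 ratio in Slc17a6-led spots, called the class difference here. A class difference of 1 means that E4 over E3 was 2-fold larger in Slc17a7-led spots.

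Background on the biology is as follows. Human APOE4 is the strongest common genetic risk factor for late-onset Alzheimer's disease, and apolipoprotein E is made in the brain mainly by astrocytes and by activated microglia. Microglia around amyloid plaques take on a disease-associated state with high Cst7, Trem2 and lysosomal genes, and nearby astrocytes raise Gfap, Serpina3n and, like microglia and oligodendrocytes, complement C4b. Plaques in 5xFAD mice are dense in deep cortical layers, the subiculum and parts of the thalamus, so that a glial response can differ from region to region.

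The E4 5xFAD section had 1792 Slc17a7-led, 272 Slc17a6-led and 258 equal or neither spots, against 1859, 362 and 318 in the E3 5xFAD section. Slc17a7-led spots held a median of 15132 UMIs in E4 5xFAD and 11556 in E3 5xFAD, while Slc17a6-led spots held 11672 and 13261, so that depth differed in opposite directions in the 2 classes. The part this plays in the ratios was not tested. The summed UMIs were 27029633 and 22532667 in Slc17a7-led spots and 3471314 and 4858902 in Slc17a6-led spots, so that the Slc17a6-led values carry the larger counting error.

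The classes separated the transporters but only in part the regions their names stand for. Slc17a6 reached 535 CPM in Slc17a6-led and 61.9 CPM in Slc17a7-led spots of E4 5xFAD, and 407 and 71.9 CPM in E3 5xFAD, as the rule ensures. The leading transporter was ahead by only 1 or 2 UMIs in 145 of the 272 Slc17a6-led spots of E4 5xFAD and in 202 of the 362 of E3 5xFAD. Summed over the 14 genes of a thalamus list, 59.2% of UMIs in E4 5xFAD and 59.7% in E3 5xFAD lay in Slc17a7-led spots, although the same genes were more concentrated in Slc17a6-led spots (3066 against 703 CPM in E4 5xFAD, and 2228 against 920 CPM in E3 5xFAD). The map of spot classes shows Slc17a7-led spots interspersed within the deep Slc17a6-led area of both sections. The classes are therefore called by their leading transporter, not cortical and subcortical.

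**Figure D1:**
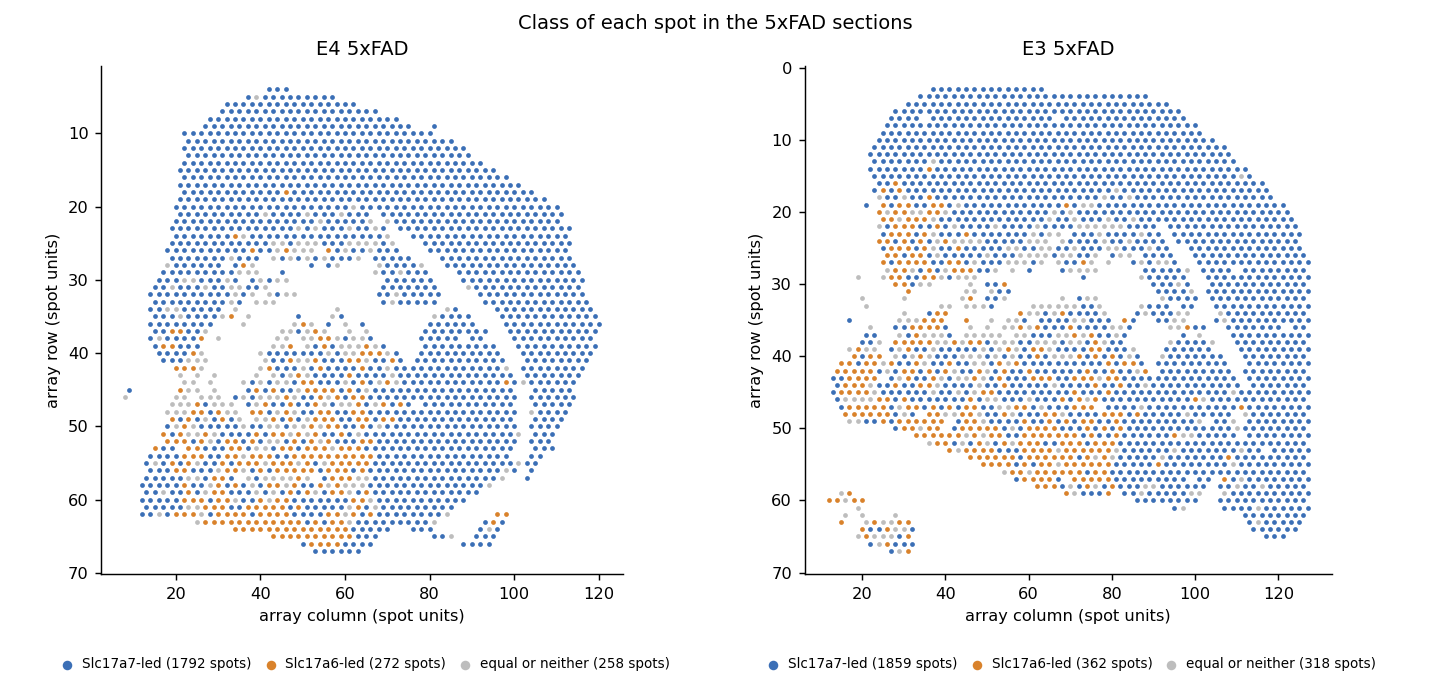
Class of each spot used in the E4 5xFAD (left) and E3 5xFAD (right) sections, placed on the slide grid (x axis, array column; y axis, array row; both in spots). The E3 5xFAD section has a patch of Slc17a6-led spots at its left edge, at array rows under 31, with few counterparts in E4 5xFAD: 6 of 272 Slc17a6-led spots lay at rows under 31 in E4 5xFAD, against 65 of 362 in E3 5xFAD.

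The Slc17a6-led spots of the 2 sections were also divided differently by the region lists. By the higher of the summed UMIs of the thalamus and hypothalamus lists, 161 of the 272 Slc17a6-led spots (59.2%) were thalamic in E4 5xFAD and 134 of 362 (37.0%) in E3 5xFAD. The hypothalamus list holds Hcrt and Pmch, and Hcrt was counted in 84.0% of Slc17a6-led spots of E3 5xFAD and 1.47% of those of E4 5xFAD. It also holds Nrgn, at 2109 CPM in the patch described next and 533 CPM in the other Slc17a6-led spots of E3 5xFAD. The split therefore does not by itself show a difference in nuclei. Besides this, the E3 5xFAD section held a patch of Slc17a6-led spots at array rows under 31. The E4 5xFAD section had 6 spots there with 0.828% of the UMIs of that class, against 65 spots with 22.6% in E3 5xFAD, and the 4 other sections had 2 to 9 spots. The patch stood apart from the other Slc17a6-led spots of E3 5xFAD by the transcription factor gene Meis2 (159.98 against 13.04 CPM), the calcium pump gene Atp2b4 (311 against 57.2 CPM), Rprml, the protocadherin gene Pcdh8, Cpne5 and the neuronal nitric oxide synthase gene Nos1 (129.98 against 31.9 CPM). Class differences are given below with and without this patch where it matters.

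Across 6964 mouse genes with at least 200 UMIs in each class over both sections, the 2 classes gave much the same ratio. The median log2 ratio of E4 5xFAD over E3 5xFAD was 0.06 in Slc17a7-led and 0.05 in Slc17a6-led spots, the median class difference was 0.01, and the central 95% of genes lay between -0.52 and 0.53. Over genes, which are not independent replicates and share the same libraries, the 2 ratios correlated with Pearson's r of 0.71 and Spearman's rho of 0.36. Levels were at least 2-fold higher in E4 5xFAD for 11 genes (0.158%) and at least 2-fold lower for 15 (0.215%) in Slc17a7-led spots, and for 23 (0.33%) and 50 (0.718%) in Slc17a6-led spots. The class difference reached 1 for 19 genes (0.273%) and -1 for 12 genes (0.172%). The counting interval left out 0 for 30 of these 31 genes, which were picked for size from the same counts, so this is no separate support. The same measure in the other pairs, which share no section with this one, reached 1 for 0.428% and -1 for 0.417% of 8882 genes in the young pair, and for 0.102% and 0.178% of 7857 genes in the 24-month pair. The share at 1 or higher in the 5xFAD pair thus lay between those of the pairs without the transgenes, and the share at -1 or lower was below both.

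**Figure D2:**
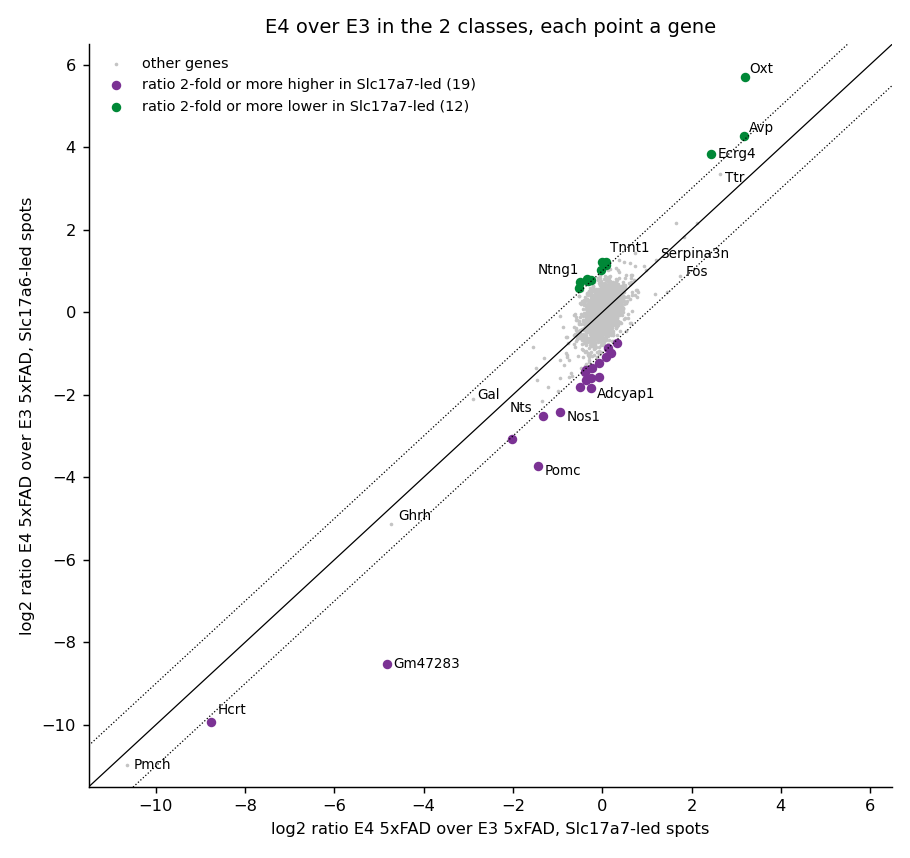
Log2 ratio of E4 5xFAD over E3 5xFAD in Slc17a7-led spots (x axis) and Slc17a6-led spots (y axis), each point 1 of 6964 genes. The solid line marks equal ratios and the dotted lines a class difference of 1 either way, and purple and green points are the 19 and 12 genes past them.

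All 31 genes had a larger ratio in size in Slc17a6-led than in Slc17a7-led spots, and for 13 of the 19 and 8 of the 12 the ratio in Slc17a7-led spots lay within 0.5 of 0. Of the lists used here, those of brain regions held 4 of the 19 and 6 of the 12. Among the 12 were 3 of the 14 thalamus genes that passed, against 0.172% of all genes. Of the 18 hypothalamus genes that passed, 3 were among the 19 and 2 among the 12, against 0.273% and 0.172% of all genes. The lists of glial, immune, metabolic, synaptic and activity genes held none of either. At the shares over all genes, lists of this size would hold few or none, so this is not read as a result.

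Thalamic genes shared 1 direction. All 14 genes of the thalamus list passed the UMI minimum, and all 14 had a negative class difference (-1.21 to -0.61, median -0.80, against 0.01 for all genes), because their ratio had a median of 0.53 in Slc17a6-led and -0.29 in Slc17a7-led spots. Ntng1, which encodes the axonal adhesion protein netrin-G1 of thalamic projection neurons, had 285 CPM in E4 5xFAD (267 to 303) and 173 CPM in E3 5xFAD (161 to 185) in Slc17a6-led spots. In Slc17a7-led spots it had 49.5 CPM in E4 5xFAD (46.8 to 52.2) and 69.5 CPM in E3 5xFAD (66.1 to 73.0), so the genotype ratio ran in opposite directions and the class difference was -1.21 (-1.38 to -1.04). Tnnt1, a troponin T gene that also marks thalamic neurons, stood at 75.8 and 32.5 CPM in Slc17a6-led spots and at 15.8 and 14.96 CPM in Slc17a7-led spots of E4 5xFAD and E3 5xFAD, with a class difference of -1.14 (-1.504 to -0.78). The Wnt effector gene Lef1 had -1.02 (-1.40 to -0.64). Synpo2, at -0.997 (-1.22 to -0.77), fell just short of the 2-fold mark, and Cit and Tcf7l2 had -0.93 and -0.87.

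Several genes outside the list behaved like these. The homeobox gene Shox2 had 100.2 CPM in E4 5xFAD (90.0 to 111) and 57.0 CPM in E3 5xFAD (50.5 to 64.1) in Slc17a6-led spots, and 11.2 and 14.3 CPM in Slc17a7-led spots. The calcium-binding protein gene Necab1 had 324 CPM in E4 5xFAD (306 to 344) and 148 CPM in E3 5xFAD (137 to 159) in Slc17a6-led spots but differed little in Slc17a7-led spots, at 90.4 and 85.5 CPM. Also at or below -1 were the forkhead transcription factor gene Foxp2 (-1.12), the metabotropic glutamate receptor gene Grm4 (-1.08) and Maob, which encodes monoamine oxidase B (-1.05). Of the 12 genes, 3 had a negative class difference in the young pair and 3 in the 24-month pair. Ntng1 had 0.46 in the young and 0.25 in the 24-month pair, and Necab1 had 2.05 in the young pair. The median of the thalamus list was 0.28 and 0.26 there, of the opposite sign.

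The uneven share of thalamic spots moved with this result. Within the thalamic Slc17a6-led spots alone, Ntng1 had a log2 ratio of -0.13 (-0.28 to 0.03), where it had 1.73 (1.46 to 1.99) in the other Slc17a6-led spots, and the list median was -0.23 and 1.41. Since the list itself sorted these spots, these values are a description. Without the patch at low array rows the list median of the class difference was -0.49, with Ntng1 at -0.95, and only 3 of the 12 genes stayed at or below -1.

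**Figure D3:**
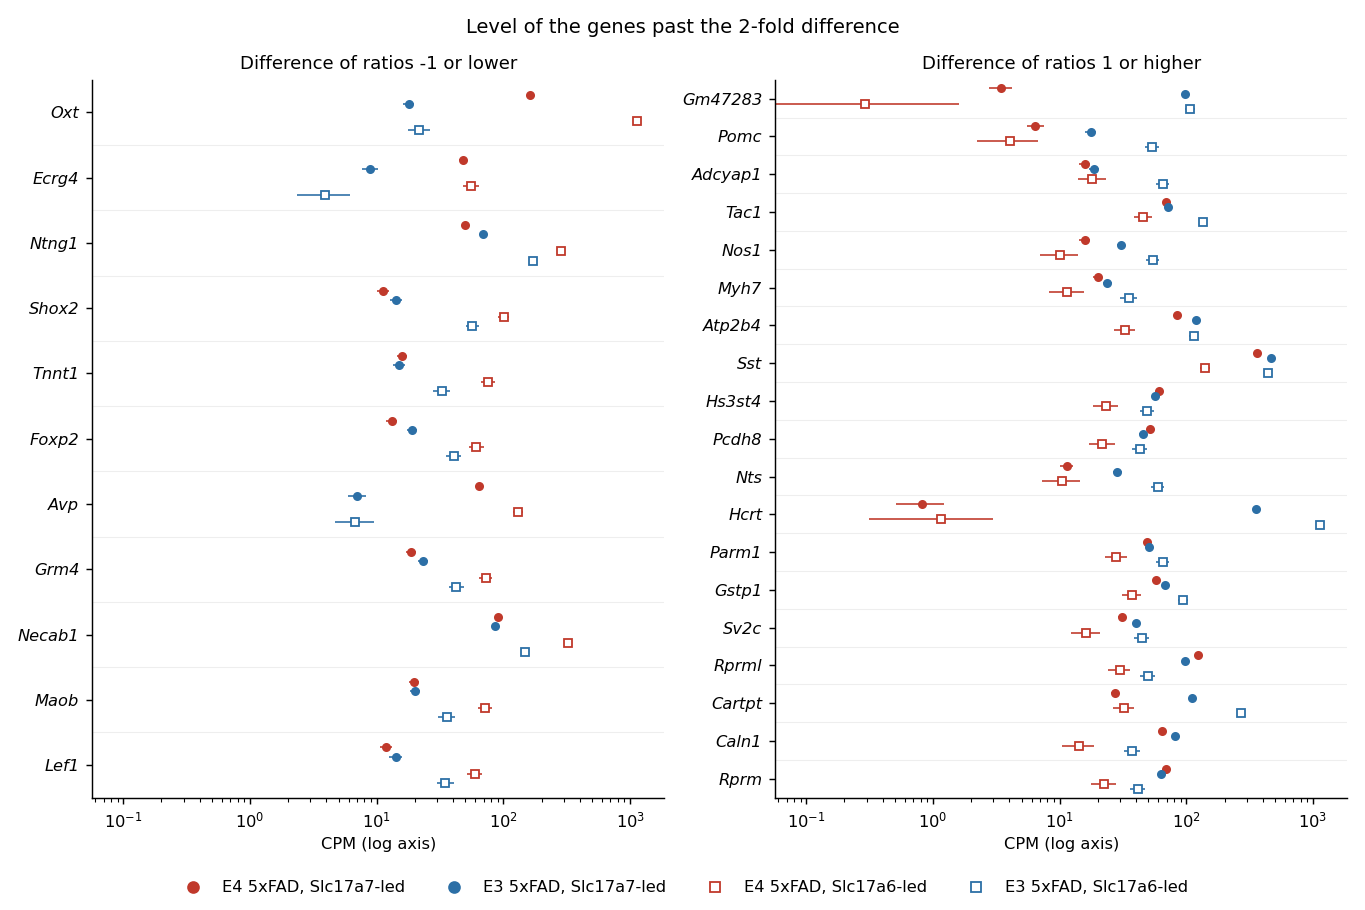
CPM (log axis) of 11 of the 12 genes with a class difference of -1 or lower (left) and the 19 of 1 or higher (right) in the 2 sections and classes, with exact 95% Poisson bars. In Slc17a6-led spots all 11 genes on the left are higher and all 19 on the right lower in E4 5xFAD (red) than in E3 5xFAD (blue).

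The hypothalamic neuropeptide genes gave some of the largest ratios, in either direction. Oxt, which encodes oxytocin (mm10 chr2:130576173-130577054), had 1128 CPM in E4 5xFAD (1093 to 1164) and 21.6 CPM in E3 5xFAD (17.7 to 26.2) in Slc17a6-led spots. In Slc17a7-led spots it had 164 CPM in E4 5xFAD (159 to 169) and 17.9 CPM in E3 5xFAD (16.2 to 19.8). It was therefore higher in E4 5xFAD in both classes, by 5.71 and 3.19 on the log2 scale, and its class difference was the lowest of all at -2.52 (-2.85 to -2.20). The 10 richest spots held 84.7% of its UMIs in the Slc17a6-led class of E4 5xFAD. Oxt UMIs occurred at a low level far beyond these spots, in 70.03% of Slc17a7-led and 68.8% of Slc17a6-led spots of E4 5xFAD, against 6.94% and 11.05% in E3 5xFAD, and in 36.8% and 48.1%, against 2.69% and 5.68%, with spots thinned to 5000 UMIs. Whether these low-level UMIs are background was not tested, and the ratio of 3.19 in Slc17a7-led spots includes them. With classes set after thinning each spot to 1000 UMIs, its class difference was -0.77. Avp, the vasopressin gene that lies next to Oxt (chr2:130580620-130582554), had 131 and 6.79 CPM in Slc17a6-led spots and 63.7 and 7.01 CPM in Slc17a7-led spots of E4 5xFAD and E3 5xFAD, with a class difference of -1.09 (-1.70 to -0.52), which was 0.18 with classes set after that thinning.

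The peptide genes of other hypothalamic nuclei went the other way. Hcrt, encoding hypocretin (orexin), a wake-promoting peptide of the lateral hypothalamus, had 22 UMIs in Slc17a7-led and 4 in Slc17a6-led spots of E4 5xFAD, against 8010 and 5498 in E3 5xFAD. Pmch, encoding melanin-concentrating hormone of the same area, had 12 and 3 UMIs in E4 5xFAD, against 15912 and 8469 in E3 5xFAD. The log2 ratios were -8.77 in Slc17a7-led and -9.94 in Slc17a6-led spots for Hcrt and -10.64 and -10.98 for Pmch, and their class differences of 1.17 (-0.39 to 3.17) and 0.34 (-1.55 to 2.81) are not resolved at counts this low in E4 5xFAD. Ghrh, the growth hormone releasing hormone gene, and the galanin gene Gal were likewise lower in E4 5xFAD in both classes, with ratios of -4.73 and -2.90 in Slc17a7-led spots and -5.14 and -2.10 in Slc17a6-led spots. Neither Hcrt nor Pmch was this scarce in the other E4 sections, where Slc17a6-led spots had 18.1 and 721 CPM of Hcrt and 773 and 2078 CPM of Pmch in E4 young and E4 aged. Hcrt UMIs occurred in 1.23% of Slc17a7-led spots of E4 5xFAD (0.771% to 1.85%), against 76.4% of those of E3 5xFAD (74.4% to 78.3%), and in 0.565% and 55.4% when each spot was thinned to 5000 UMIs. Hcrt was thus counted in most spots of both classes of the E3 5xFAD section. Whether such UMIs are background was not tested, and the classes do not show which spots lie in the hypothalamus.

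Among the genes with a positive class difference, Pomc had the highest but for Gm47283, described below. The value rested on 14 Pomc UMIs in Slc17a6-led spots of E4 5xFAD and ran from 0.96 to 3.78 over 13 alternatives. Pomc encodes proopiomelanocortin of the arcuate nucleus and had 4.03 CPM in E4 5xFAD (2.20 to 6.77) and 53.7 CPM in E3 5xFAD (47.4 to 60.6) in Slc17a6-led spots, against 6.44 and 17.5 CPM in Slc17a7-led spots, a class difference of 2.29 (1.46 to 3.22). Adcyap1, which encodes the neuropeptide PACAP, had 18.1 CPM in E4 5xFAD (13.9 to 23.2) and 64.8 CPM in E3 5xFAD (57.9 to 72.4) in Slc17a6-led spots and 15.7 and 18.7 CPM in Slc17a7-led spots. Its class difference was 1.59 (1.14 to 2.05), followed by Tac1, the substance P gene, at 1.503 (1.23 to 1.78). The neurotensin gene Nts had 1.18, and 0.0815 with the parts of each class weighted equally. Of the 19 genes, 8 had a positive class difference in the young pair and 13 in the 24-month pair. In the young and 24-month pairs, Pomc had 0.06 and -0.25, Adcyap1 -0.53 and -0.45, Tac1 -1.13 and 0.43, and Nts -1.28 and 1.26. Over the 18 of 19 hypothalamus genes that passed, the ratio had a median of -1.10 in Slc17a6-led and -0.55 in Slc17a7-led spots, and 13 of 18 had a positive class difference, where 52.5% of all genes did. With the parts of each class weighted equally the direction turned, with a median class difference of -0.31 and median ratios of -0.57 in Slc17a6-led and -0.70 in Slc17a7-led spots.

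Genes of inhibitory neurons formed part of the same picture. Sst, encoding somatostatin, had 141 CPM in E4 5xFAD (128 to 154) and 437 CPM in E3 5xFAD (419 to 456) in Slc17a6-led spots, while Slc17a7-led spots had 361 and 464 CPM, a class difference of 1.27 (1.13 to 1.42). The patch at low array rows held 38.7% of the Slc17a6-led Sst UMIs of E3 5xFAD, and without it the class difference was 0.972, short of 2-fold. Slc32a1, the vesicular GABA transporter gene, and the glutamate decarboxylase genes Gad1 and Gad2 were level between the sections in Slc17a7-led spots (log2 ratios of -0.02, 0.05 and -0.03) and lower in E4 5xFAD in Slc17a6-led spots (-0.97, -0.65 and -0.78). The parvalbumin gene Pvalb, a marker of another inhibitory class and of some thalamic reticular cells, went the opposite way, at 0.55 in Slc17a6-led and 0.06 in Slc17a7-led spots. Of the 8 of 12 genes of the reticular, zona incerta and pallidal GABA list that passed, 6 had a positive class difference, with a median of 0.73.

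Several of these genes had much of their signal in the patch of Slc17a6-led spots at low array rows in E3 5xFAD. It held 61.4% of the Atp2b4 UMIs, 55.8% of those of Pcdh8, 54.4% of those of Nos1 and 52.4% of those of the myosin gene Myh7 in that class, against 22.6% of all UMIs. Without the patch their class differences were 0.33, 0.36, 0.70 and 0.67, where they had been 1.32, 1.18, 1.47 and 1.35. Pomc, Adcyap1 and Tac1 kept values of 2.55, 1.37 and 1.46. In all, 8 of the 19 genes stayed at or above 1 without the patch. Meis2, the leading gene of the patch, had a class difference of 0.59 with it and -1.11 without it.

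The gene with the highest class difference, Gm47283, had few UMIs in E4 5xFAD. Its position in the GENCODE annotation of mm10 is chrY:90784738-90816464. The mice are labelled female, and the Y-linked genes Ddx3y, Uty and Eif2s3y had 0 UMIs in Slc17a7-led spots of both sections. Xist was present there at 47.4 CPM in E4 5xFAD and 38.5 CPM in E3 5xFAD. The Gm47283 counts are therefore not read as a sign of male tissue. It had 93 UMIs in Slc17a7-led and 1 UMI in Slc17a6-led spots of E4 5xFAD, against 2204 and 518 in E3 5xFAD. Its log2 ratios were -4.83 (-5.14 to -4.53) and -8.53 (-13.84 to -6.05), and the class difference of 3.70 (1.18 to 9.02) rests on that 1 UMI. Gm47283 was similarly scarce in E4 young and E4 aged, at 2.05 and 0.920 CPM in Slc17a7-led spots, against 41.1 and 80.2 CPM in E3 young and E3 aged.

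Genes of the choroid plexus were higher in E4 5xFAD in both classes. Ttr, encoding transthyretin of the choroid plexus, had 4823 CPM in E4 5xFAD and 774 CPM in E3 5xFAD in Slc17a7-led spots, and 5615 and 548 CPM in Slc17a6-led spots, a class difference of -0.72 (-0.78 to -0.65). Kl, the klotho gene, had 39.9 and 9.10 CPM in Slc17a7-led spots and 44.9 and 10.1 CPM in Slc17a6-led spots. The 10 richest spots held 58.2% of the Ttr UMIs among the 1792 Slc17a7-led spots of E4 5xFAD, and 69.6% in E3 5xFAD. Ecrg4, which is expressed in choroid plexus, had 55.6 CPM in E4 5xFAD and 3.91 CPM in E3 5xFAD in Slc17a6-led spots and 47.6 and 8.83 CPM in Slc17a7-led spots, a class difference of -1.40 (-2.20 to -0.68). The 11 genes of the choroid plexus list summed to 4954 and 807 CPM in Slc17a7-led and to 5788 and 599 CPM in Slc17a6-led spots. In equal or neither spots the direction was the opposite, with a sum of 2370.1 CPM in E4 5xFAD and 3758 CPM in E3 5xFAD and none of the 3 genes that passed above 0 (median ratio -0.67). In the young pair the 1 list gene that passed had ratios of -3.49 in Slc17a7-led and -3.63 in Slc17a6-led spots. The 5 that passed in the 24-month pair had medians of 1.83 and 4.34. Ecrg4 had class differences of -1.59 and -3.47 in these pairs. Large ratios in either direction thus also occurred between sections without the transgenes. Enpp2, counted with the myelin genes but also strongly expressed in choroid plexus, had log2 ratios of 1.65 in Slc17a7-led and 2.15 in Slc17a6-led spots.

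Glial genes of the response to amyloid that passed the UMI minimum had class differences short of 2-fold. The counting intervals of several nonetheless left out 0, in either direction. They lay above 0 for Cst7, Tyrobp, Hexa, Fth1 and C1qa, among others. They lay below 0 for Gfap, Spp1, Axl, B2m, Timp2, Grn and C1qb, among others. Serpina3n, a protease inhibitor gene of reactive astrocytes, had 153 CPM in E4 5xFAD (149 to 158) and 66.9 CPM in E3 5xFAD (63.6 to 70.4) in Slc17a7-led spots. In Slc17a6-led spots it had 208 CPM in E4 5xFAD (193 to 223) and 86.6 CPM in E3 5xFAD (78.6 to 95.3). The log2 ratios were 1.19 (1.11 to 1.28) and 1.26 (1.09 to 1.44), and the class difference was -0.07 (-0.26 to 0.13). Thus the level in Slc17a6-led spots was higher than in Slc17a7-led spots in both sections, while the ratio between the genotypes differed by less than the counting error.

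C4b and Gfap were also higher in E4 5xFAD in both classes. C4b, a complement component gene, had 147 CPM in E4 5xFAD and 74.8 CPM in E3 5xFAD in Slc17a7-led spots and 123 and 60.3 CPM in Slc17a6-led spots, with ratios of 0.97 (0.89 to 1.06) and 1.03 (0.81 to 1.25). Gfap, the astrocyte intermediate filament gene, had 346 and 180.1 CPM in Slc17a7-led and 294 and 135 CPM in Slc17a6-led spots, with ratios of 0.94 (0.889 to 0.996) and 1.12 (0.98 to 1.26) and a class difference of -0.18 (-0.33 to -0.03). Only 4 of 19 genes of the reactive astrocyte list passed the UMI minimum, with median ratios of 0.78 and 0.72. All 4 were higher in E4 5xFAD in both classes, where 65.4% of all genes were in Slc17a7-led and 57.5% in Slc17a6-led spots.

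The disease-associated microglia list gave a small shift in both classes, whose equal size depended on the patch at low array rows: without it the medians were 0.28 in Slc17a7-led and 0.12 in Slc17a6-led spots. Its 23 genes that passed, of 37, had with the patch a median ratio of 0.28 in Slc17a7-led and 0.27 in Slc17a6-led spots (against 0.06 and 0.05 for all genes). Of the 23, 20 and 23 lay above 0, where 65.4% and 57.5% of all genes did. A positive class difference was found for 13 of 23, where 52.5% of all genes had one. Trem2, the microglial lipid receptor gene, had 171 CPM in E4 5xFAD in each class, against 111 CPM in E3 5xFAD in Slc17a7-led and 107 CPM in Slc17a6-led spots. Cst7, which encodes the protease inhibitor cystatin F, had 94.7 CPM in E4 5xFAD (91.1 to 98.5) and 54.5 CPM in E3 5xFAD (51.4 to 57.6) in Slc17a7-led spots and 84.7 CPM in E4 5xFAD (75.3 to 94.9) and 60.3 CPM in E3 5xFAD (53.6 to 67.6) in Slc17a6-led spots. With ratios of 0.80 and 0.49, its class difference of 0.31 (0.06 to 0.56) was the highest of the 23 genes that passed. Spp1, the osteopontin gene, had the lowest of the 23, at -0.61 (-0.92 to -0.30), with 20.3 and 22.7 CPM in Slc17a7-led and 68.3 and 50.01 CPM in Slc17a6-led spots. Members below the UMI minimum reached further in both directions. Cd74 had 1.09 (0.44 to 1.74), with 41 and 60 UMIs in Slc17a6-led spots of E4 5xFAD and E3 5xFAD. Ch25h had -0.90 (-2.33 to 0.51), with 15 and 11 UMIs there. Homeostatic microglial genes had smaller ratios, with medians of 0.11 and 0.14 over 9 of 15 genes, and the class difference of Cx3cr1 was -0.20.

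The share of spots with a Cst7 UMI gave the same order of the 2 sections in each class, though not of the 2 classes in E3 5xFAD. Cst7 was counted in 60.1% of Slc17a7-led (57.8% to 62.4%) and 53.7% of Slc17a6-led spots (47.6% to 59.7%) of E4 5xFAD, against 33.4% (31.3% to 35.6%) and 32.0% (27.3% to 37.1%) in E3 5xFAD. With spots thinned to 5000 UMIs these shares were 35.1% and 31.3% in E4 5xFAD, against 20.0% and 17.4% in E3 5xFAD. The thinning left out 199 Slc17a7-led and 58 Slc17a6-led spots of E4 5xFAD and 296 and 45 of E3 5xFAD. The shares of the 2 classes were less alike for other genes. At 5000 UMIs Serpina3n was counted in 50.4% of Slc17a7-led and 62.1% of Slc17a6-led spots of E4 5xFAD, against 23.1% and 28.1% in E3 5xFAD, and Gfap in 76.6% and 72.9% of those of E4 5xFAD, against 52.5% and 40.4% in E3 5xFAD.

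When each class was taken apart, however, the microglial genes were not uniform. The Slc17a7-led spots were divided by whether hippocampus or isocortex genes had more UMIs (398 hippocampal spots in E4 5xFAD, 309 in E3 5xFAD), and the Slc17a6-led spots by thalamus against hypothalamus genes, as above. In thalamic spots the disease-associated microglia list had a median ratio of -0.15, with 4 of 23 genes above 0, while in the other Slc17a6-led spots it had 0.51, with 22 of 23 above 0. The medians of all genes were 0.02 and 0.05 there. By this sorting, the ratio in the Slc17a6-led class as a whole joined a part without the E4 5xFAD excess and a part with a larger one. The hypothalamus list used for the sorting holds Hcrt and Pmch, which were scarce in E4 5xFAD and abundant in E3 5xFAD. Like spots of the sections can thus be sorted into unlike parts, so these ratios need not compare the same tissue. In the hippocampal and the other Slc17a7-led spots the list had 0.34 and 0.27.

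**Figure D4:**
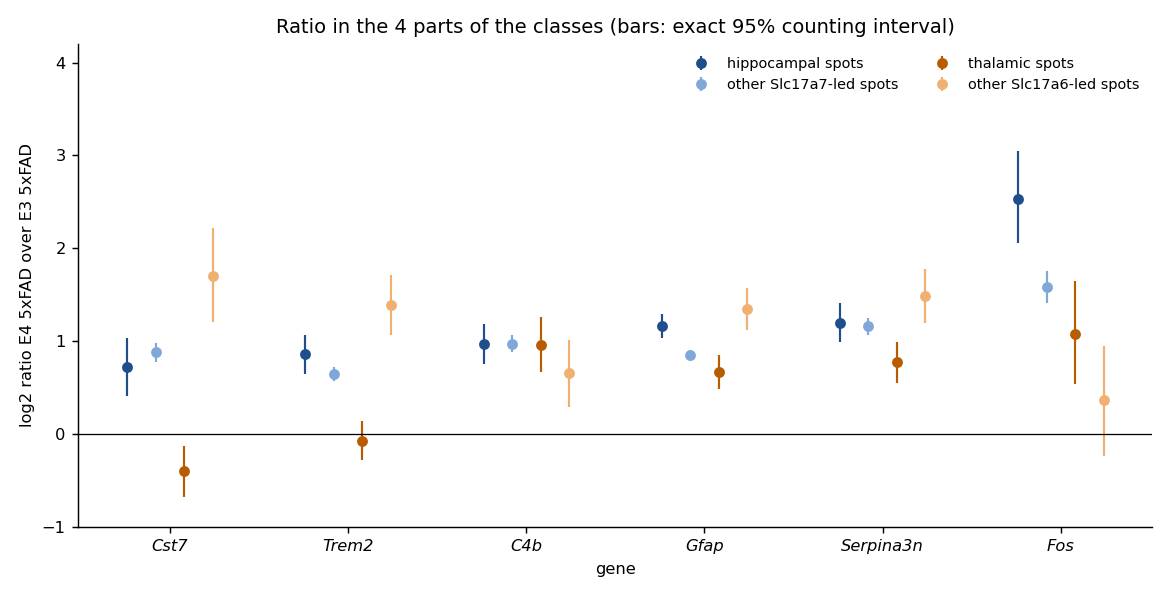
Log2 ratio of E4 5xFAD over E3 5xFAD (y axis) of 6 genes in the hippocampal and other Slc17a7-led spots and the thalamic and other Slc17a6-led spots, with exact 95% counting intervals. Cst7 lies below 0 and Trem2 near 0 in thalamic spots alone, while C4b, Gfap and Serpina3n are above 0 in all 4.

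Cst7 had 208 UMIs in thalamic spots of E4 5xFAD and 237 in those of E3 5xFAD, a log2 ratio of -0.40 (-0.68 to -0.13), against 86 and 56 UMIs and a ratio of 1.70 (1.203 to 2.22) in the other Slc17a6-led spots. Its level was 104.5 CPM in thalamic spots of E4 5xFAD and 138 CPM in those of E3 5xFAD. In E4 5xFAD the other Slc17a7-led spots had as much, at 105.0 CPM, while in E3 5xFAD thalamic spots had the highest level of the 4 parts. Trem2 had a ratio of -0.07 (-0.28 to 0.14) in thalamic and 1.39 (1.07 to 1.71) in the other Slc17a6-led spots. The complement list followed the microglial one, with a median of -0.17 and 1 of 5 genes above 0 in thalamic spots and 0.63 and 5 of 5 in the other Slc17a6-led spots. C4b and the astrocyte genes stood apart from it: in thalamic spots C4b had 0.96 (0.67 to 1.26), Serpina3n 0.77 (0.55 to 0.99) and Gfap 0.67 (0.48 to 0.85). The other Slc17a6-led spots of E3 5xFAD include the patch at low array rows, and without the patch the ratio of the microglial list in the whole Slc17a6-led class had a median of 0.12, where it was 0.27 with it. The uneven sorting of spots into thalamic and other parts moves with these values too, and its part was not tested.

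Resting astrocyte genes leaned to Slc17a6-led spots. Of 15 homeostatic astrocyte genes, which all passed, 14 had a negative class difference (median -0.26, lowest -0.46), with median ratios of 0.02 in Slc17a7-led and 0.23 in Slc17a6-led spots. Kcnj10, the potassium channel gene of astrocyte end feet, had 169 and 131 CPM in Slc17a7-led spots and 386 and 217 CPM in Slc17a6-led spots of E4 5xFAD and E3 5xFAD, a class difference of -0.46 (-0.60 to -0.33). The gap junction gene Gja1 was level in Slc17a7-led spots at 129.8 and 128 CPM but had 240 and 172 CPM in Slc17a6-led spots. In thalamic spots this list had a median ratio of 0.41, where the microglial list had -0.15. Over the 24 of 28 myelin and oligodendrocyte genes that passed, the medians were 0.20 and 0.36, and 5 of 24 class differences were positive. Both lists leaned the same way in the pairs without the transgenes. The median class difference in the young and 24-month pairs was -0.18 and -0.07 for homeostatic astrocyte genes and -0.06 and -0.09 for myelin genes. Over all genes it was 0.08 and 0.04 there.

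**Figure D5:**
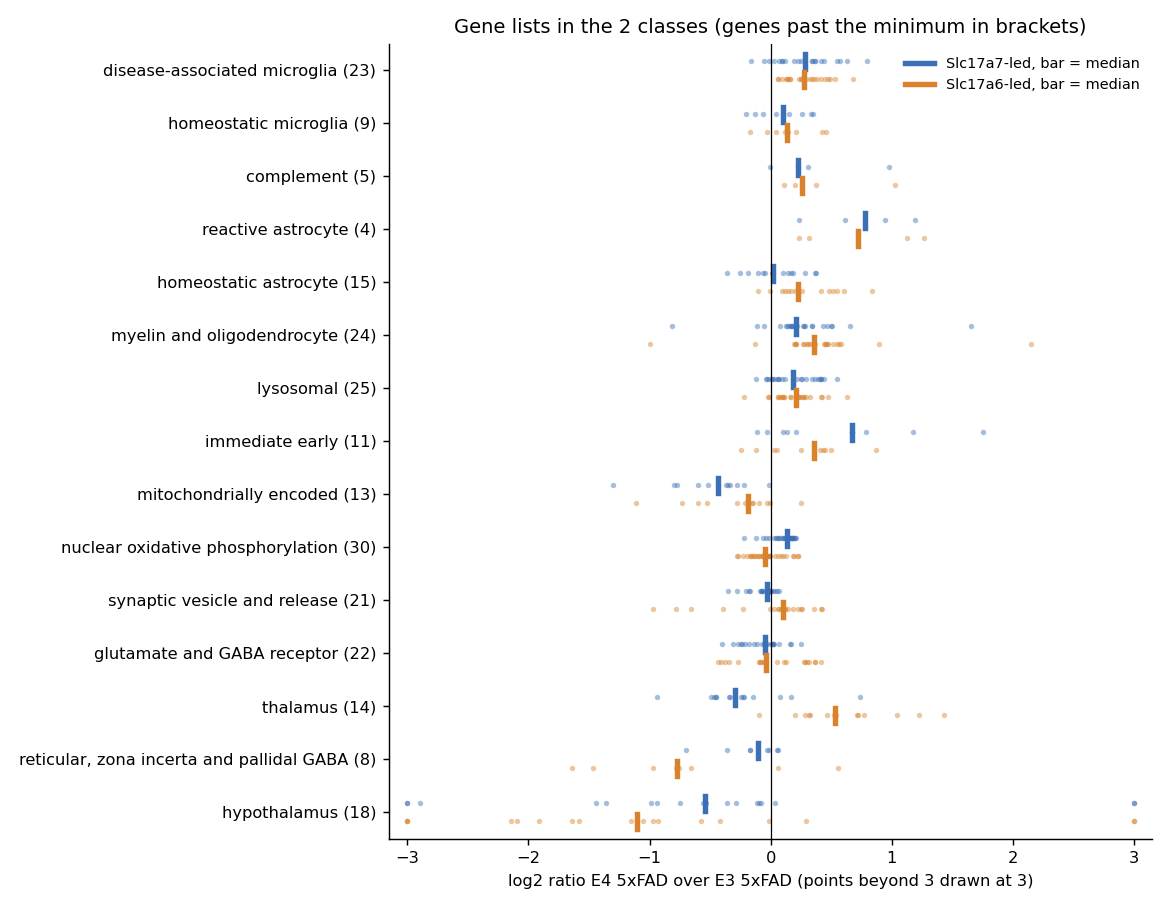
Log2 ratio of E4 5xFAD over E3 5xFAD of the genes of 15 lists that passed the UMI minimum (number in brackets), in Slc17a7-led (blue) and Slc17a6-led (orange) spots. Points are genes and bars are medians, which stand at 0.28 and 0.27 for disease-associated microglia and lie on either side of 0 for the thalamus list (-0.29 and 0.53).

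Immediate early genes, which neurons switch on within minutes of activity, were led by Fos, which was higher in E4 5xFAD and more so in Slc17a7-led spots. Fos had 59.3 CPM in E4 5xFAD (56.4 to 62.2) and 17.6 CPM in E3 5xFAD (15.9 to 19.4) in Slc17a7-led spots. In Slc17a6-led spots it had 39.8 CPM in E4 5xFAD (33.4 to 47.0) and 21.8 CPM in E3 5xFAD (17.9 to 26.4). The ratios were 1.75 (1.59 to 1.91) and 0.87 (0.49 to 1.24), a class difference of 0.88 (0.47 to 1.29), and in hippocampal spots the ratio was 2.53 (2.06 to 3.05). Junb, encoding another AP-1 subunit, had a class difference of 0.72 (0.32 to 1.12), and the zinc finger transcription factor gene Egr1 had 0.65 (0.42 to 0.87), with 248 and 156 CPM in Slc17a7-led spots but 80.7 and 79.2 CPM in Slc17a6-led spots. Npas4, which fell below the UMI minimum, had 1318 and 55 UMIs in Slc17a7-led and Slc17a6-led spots of E4 5xFAD, against 168 and 20 in E3 5xFAD. Of the 11 of 26 genes that passed, 9 had a positive class difference, with medians of 0.67 in Slc17a7-led and 0.36 in Slc17a6-led spots. The median class difference of the list was 0.26, 0.37 in the young pair and 0.03 in the 24-month pair. The lean of the list to Slc17a7-led spots rested on few genes: its medians in Slc17a7-led and Slc17a6-led spots were 0.06 and -0.02 (5 genes) when spots needed a lead of 3 UMIs, 0.13 and 0.13 (7 genes) with classes set after thinning, 0.21 and 0.21 (9 genes) without the patch at low array rows, and 0.09 and 0.14 (4 genes) at a gene minimum of 500 UMIs.

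The 2 genomes of the respiratory chain differed in which class they leaned to. All 13 mitochondrially encoded genes had a negative class difference (-0.34 to -0.04, median -0.21), with median ratios of -0.43 in Slc17a7-led and -0.19 in Slc17a6-led spots. The complex I gene mt-Nd1 had 6054 CPM in E4 5xFAD and 8172 CPM in E3 5xFAD in Slc17a7-led spots, and 6797 and 7248 CPM in Slc17a6-led spots. mt-Co1, encoding a subunit of complex IV, had ratios of -0.02 and 0.25. Mitochondrial UMIs made up 9.22% and 11.5% of Slc17a7-led and 9.67% and 10.3% of Slc17a6-led UMIs in E4 5xFAD and E3 5xFAD. For nuclear genes of oxidative phosphorylation the median ratios were 0.13 and -0.05, and 24 of 30 had a positive class difference (median 0.16, highest 0.32 for Cox5a). In the young pair the mitochondrially encoded list had -0.23 and the nuclear list -0.24, and in the 24-month pair -0.09 and -0.06. The first lean was thus present in both other pairs, while the second was of the opposite sign in both. The contrast between the 2 lists was seen in the 5xFAD pair only.

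The transgene itself was not shared evenly. Human APP, made from the 5xFAD transgene, had 103 CPM in E4 5xFAD (99.3 to 107) and 73.6 CPM in E3 5xFAD (70.1 to 77.2) in Slc17a7-led spots, and 25.6 CPM in E4 5xFAD (20.6 to 31.6) and 28.4 CPM in E3 5xFAD (23.9 to 33.6) in Slc17a6-led spots. The ratio was 0.49 (0.40 to 0.58) and -0.15 (-0.55 to 0.25), a class difference of 0.63 (0.23 to 1.05). Thy1, whose cassette drives the transgenes and which also has its own gene, had 5747 and 4114 CPM in Slc17a7-led and 2387 and 1987 CPM in Slc17a6-led spots, a class difference of 0.22 (0.17 to 0.26). Human APOE had 1013 and 924 CPM in Slc17a7-led and 1339 and 1106 CPM in Slc17a6-led spots, so the replaced gene was slightly higher in E4 5xFAD in both. Mouse App was a little lower in E4 5xFAD, with ratios of -0.12 and -0.17. UMIs assigned to mouse Apoe, whose gene was replaced in these mice, had 91.4 and 80.2 CPM in Slc17a7-led and 104 and 99.0 CPM in Slc17a6-led spots. The glial ratios above therefore stood beside a higher transgene level in Slc17a7-led spots of E4 5xFAD, and the part of the transgene in them was not tested.

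In several other lists the median ratios of the classes lay close together. Lysosomal genes had median ratios of 0.18 and 0.21 over 25 of 26 genes, complement genes 0.22 and 0.26 over 5 of 11, cholesterol synthesis genes 0.13 and 0.08 over 20 of 25, and glycolysis and HIF1 target genes 0.06 and 0.06 over 20 of 22. Synaptic vesicle genes leaned to Slc17a6-led spots, with -0.03 and 0.10 over 21 of 22 and a median class difference of -0.19, and 4 of 21 class differences were positive, those of Slc32a1 (0.95), Gad2 (0.75) and Gad1 (0.70) among them. None of the MHC class II, blood, ependymal or border macrophage and lymphocyte genes reached the UMI minimum. The equal or neither spots, with median depths of 2799 UMIs in E4 5xFAD and 4383 in E3 5xFAD, gave 0.16 for disease-associated microglia and 0.21 for reactive astrocyte genes.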

How the data were processed

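Spatial transcriptomes of 6 coronal sections (Visium) were deposited by the authors as UMI counts per spot and gene against a combined mouse and human reference, made with Space Ranger 1.3.0 and STAR 2.5.1b per the methods, while the headers of the deposited files name Space Ranger 1.2.2 and 2.0.0. Only 81.3% of the tissue spots listed for E4 5xFAD had a barcode in its count matrix, against 99.9% for E3 5xFAD. The others could not be used. Conversely, the E4 5xFAD matrix held 3332 barcodes, of which 2660 were listed as tissue, against 2779 and 2773 for E3 5xFAD. With the tissue mask ignored, Slc17a6-led spots rose from 272 to 331 in E4 5xFAD and from 362 to 364 in E3 5xFAD. The thalamus list then had medians of -0.30 in Slc17a7-led and 0.51 in Slc17a6-led spots. The cause of the mismatch was not tested. The 5xFAD sections share 2484 barcodes, which come from the array design and not from shared cells. Spots on tissue with at least 1000 UMIs were summed per class. Intervals are exact Poisson for levels, exact binomial for ratios and shares, and conditional for class differences, at 95%, for counting error only. Genes needed 200 UMIs in each class over both sections. No value was tested, since each group had 1 section. In spots, fewer cells of a type and less RNA per cell cannot be told apart.

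Genes were named by rule: the 15 highest and 15 lowest class differences, the 5 highest and 5 lowest ratios shared by both classes, the 3 members of each list with the largest class difference in size, and a set of glial, APOE and APP genes. Cit, Tcf7l2, Pvalb, Npas4, Cd74, Ch25h, the glial genes named for their intervals and the genes of the patch were chosen after their values were seen. The members and gene lists were chosen with earlier results of these data known. Coordinates are from the GENCODE annotation of mm10. Calculations used Python 3.11.15, NumPy 2.4.6, SciPy 1.17.1 and pandas 2.3.3 and were tested on simulated data. Some genes are counted but not reported by name here. In all, 14 alternatives were run.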

Additional observations from a re-analysis of the deposited data

Results flagged for a closer look

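For 8 named genes the ratio of E4 5xFAD to E3 5xFAD ran in opposite directions in the 2 classes, by at least 0.25 on the log2 scale in each and with counting intervals off 0. The difference was not tested, since there was 1 section a side. The class differences were -1.21 for Ntng1, -1.16 for Shox2, -1.12 for Foxp2, -1.08 for Grm4, -0.997 for Synpo2, -0.86 for the nuclear receptor gene Rorb and -0.82 for Ppp1r1b, which encodes the dopamine signalling protein DARPP-32, all of which were higher in E4 5xFAD in Slc17a6-led and lower in Slc17a7-led spots. Tac2, the neurokinin B gene, went the other way with 0.98.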

How the results depend on the processing

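The counts of genes past a 2-fold class difference, 19 and 12, depended on how spots were placed. They were 4 and 2 with classes set after thinning each spot to 1000 UMIs, 41 and 21 at a gene minimum of 100 UMIs, 7 and 4 at a minimum of 500 UMIs, 4 and 21 with the parts of each class weighted equally, and 122 and 124 at a 1.5-fold limit. With the mean share over spots the lower count was 4. Without the Slc17a6-led spots at array rows under 31 they were 11 and 4. The median of the thalamus list was -0.24 after thinning, -0.55 with the mean share and -0.49 without those spots. That of the hypothalamus list was 0.16 after thinning and -0.31 with equal weights, and that of the immediate early list -0.11 at a minimum of 500 UMIs. The mitochondrially encoded list had -0.25 with a lead of at least 3 UMIs, -0.24 after thinning, -0.24 with totals that left out mitochondrial, hemoglobin and RNA quality genes, -0.17 with the mean share, -0.14 with equal weights and -0.29 without those spots. Avp at 0.18 and Hcrt at -0.0321 changed sign after thinning. Of the 31 genes, Cartpt (1.05) and Rprm (1.01) also changed sign, each under 1 of 13 alternatives, at -0.27 and -0.16. The cause was not tested.

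Of the 14 alternatives, 3 (tissue mask ignored, largest connected piece, spots at rows under 31 left out) were chosen after seeing the data. No paired analysis was possible because each group had 1 section. Depth limits the Slc17a6-led class, where the leading transporter was often ahead by 1 or 2 UMIs, and genes with few UMIs on either side.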
